A study of Mus musculus with 2 samples.

Results

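The genes described here encode the machinery of oxidative phosphorylation, the process by which mitochondria turn the energy of food molecules into ATP. They were chosen by symbol: mitochondrially encoded genes of the mt-Nd, mt-Co, mt-Cytb and mt-Atp groups, and nuclear genes whose symbols start with Ndufa, Ndufb, Ndufc, Ndufs, Ndufv, Uqcr, Sdh, Atp5 or Cox4 to Cox8. Of 31054 genes listed, 110 matched, and 107 of these had at least 20 UMIs over the whole series. The 107 members comprised 13 mitochondrially encoded subunits, 82 nuclear-encoded subunits and 12 assembly factors with Ndufaf or Sdhaf symbols. Cox8b with 1 UMI, Cox8c with 4 UMIs and an additional Atp5o identifier with 1 UMI fell below the minimum.

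The cells came from the preoptic area (POA) of the brain, an anterior hypothalamic region with neurons that promote sleep. The SD+RS group was 1 single-cell library from mice deprived of sleep for 6 h and then left to recover sleep for 2 h. The SD group was 1 library from mice deprived of sleep for 6 h with no recovery. In both groups the mice were C57BL/6J, 9 to 10 weeks of age, males and females were pooled, the number of mice is not stated in the sources used here, and cells were prepared with Act-seq, which blocks transcription during dissociation, and 10x Genomics chemistry.

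Complexes I to IV pass electrons along the inner mitochondrial membrane, most of them pumping protons as they do, and complex V uses the proton gradient to make ATP. Complex I (NADH dehydrogenase), complex III (cytochrome bc1), complex IV (cytochrome c oxidase) and complex V (ATP synthase) are built from subunits of both genomes, while complex II (succinate dehydrogenase) is built from nuclear subunits alone. The mitochondrial subunits sit in the core of each complex and are transcribed as long transcripts from both strands of the mitochondrial DNA, which are then cut and polyadenylated. Neurons rely on this pathway for the ATP that restores ion gradients after firing, and astrocytes and oligodendrocytes make more use of glycolysis.

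By complex, the nuclear and mitochondrial subunits numbered 36 and 7 for complex I, 4 and 0 for complex II, 8 and 1 for complex III, 18 and 3 for complex IV, and 16 and 2 for complex V. Ndufa4 and Ndufa4l2, named for complex I, were counted with complex IV, where the Ndufa4 protein sits. On the mitochondrial chromosome several members share bases: mt-Atp8 (bases 7766 to 7969) overlaps mt-Atp6 (7927 to 8607), mt-Nd4l (9877 to 10173) overlaps mt-Nd4 (10167 to 11544), and mt-Nd5 (11742 to 13565) overlaps the opposite-strand mt-Nd6 (13552 to 14070). Reads within the overlaps of genes on the same strand are uncertain in origin. The counts are of 3′ ends, so differences in level between genes also reflect how each gene's 3′ end is captured. Shares and ratios over several genes are read only across cells and libraries.

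Promoter sequences are shown for the genes of the ATP synthase c subunit, Atp5g1, Atp5g2 and Atp5g3, which encode the same mature protein and were used in different proportions by neurons and other cells, and for Cox6a1, the broadly used partner of Cox6a2. Each window runs from 250 bases before to 50 bases after the RefSeq start of the gene, is given 5′ to 3′ on the strand of the gene, and is credited to RefSeq on build GRCm38.p6. Capitals mark matches, on either strand, to the letters GCGCA, any base and then GCGC (NRF1), CCGGAAG (the core of ETS factors such as GABPA), AAGATGGC (YY1) or TCAAGGTCA (estrogen-related receptors), all named in the literature on nuclear genes of respiration. The last letters of the ETS motif can also begin the YY1 motif.
Atp5g1, chr11:96075582-96075881, minus strand.
Atp5g1: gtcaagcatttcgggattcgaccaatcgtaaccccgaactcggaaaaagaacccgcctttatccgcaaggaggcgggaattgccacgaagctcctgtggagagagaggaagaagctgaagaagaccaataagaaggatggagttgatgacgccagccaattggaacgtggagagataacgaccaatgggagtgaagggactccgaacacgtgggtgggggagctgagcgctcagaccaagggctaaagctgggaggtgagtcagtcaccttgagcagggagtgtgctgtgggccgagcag
Atp5g2, chr15:102670998-102671297, minus strand.
Atp5g2: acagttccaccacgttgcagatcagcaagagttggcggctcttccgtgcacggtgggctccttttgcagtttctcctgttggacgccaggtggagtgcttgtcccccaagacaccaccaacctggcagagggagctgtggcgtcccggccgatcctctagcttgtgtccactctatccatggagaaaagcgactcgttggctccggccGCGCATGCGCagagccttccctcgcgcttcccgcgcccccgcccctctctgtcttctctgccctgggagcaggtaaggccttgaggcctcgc
Atp5g3, chr2:73911277-73911576, minus strand.
Atp5g3: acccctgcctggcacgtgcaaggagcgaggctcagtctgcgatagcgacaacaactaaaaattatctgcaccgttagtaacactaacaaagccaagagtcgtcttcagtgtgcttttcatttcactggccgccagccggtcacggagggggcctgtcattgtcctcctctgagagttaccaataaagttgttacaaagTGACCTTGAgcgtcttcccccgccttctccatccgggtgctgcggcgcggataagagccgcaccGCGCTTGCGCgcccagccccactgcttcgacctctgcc
Cox6a1, chr5:115348909-115349208, minus strand.
Cox6a1: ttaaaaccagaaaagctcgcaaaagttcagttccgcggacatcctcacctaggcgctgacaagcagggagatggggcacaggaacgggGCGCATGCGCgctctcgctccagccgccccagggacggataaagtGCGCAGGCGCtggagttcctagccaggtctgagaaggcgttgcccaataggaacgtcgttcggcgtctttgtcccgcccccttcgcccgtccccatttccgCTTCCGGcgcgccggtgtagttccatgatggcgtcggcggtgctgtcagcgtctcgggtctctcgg
For Atp5g2 that start lies inside the span the GENCODE annotation gives the gene (chr15:102662864-102672352), downstream of the start listed there. Atp5g2 and Atp5g3 each held an NRF1 match, Atp5g3 also held an estrogen-related receptor match, and Cox6a1 held NRF1 matches and an ETS match. The Atp5g1 window held none of these letters. Windows were matched for 77 of the 94 nuclear members. The NRF1 letters were found in 27.3% of these 77 windows, against 5.19% of the windows of 27025 genes of the same length, and the ETS letters in 27.3% against 9.93%. The YY1 letters were in 13% against 3.19%, and the receptor letters in 2.6% against 0.466%. A match is a description of these letters and not evidence of binding.

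Depth was 123500649 UMIs over 8106 barcodes in the SD+RS library (median 14774 per barcode) and 132191585 UMIs over 10262 barcodes in the SD library (median 7534.5). After filters on genes and mitochondrial UMIs and removal of called doublets, 7435 SD+RS cells and 9293 SD cells were described. The libraries shared 23 barcodes. Among cells that could be assigned by Xist or Y-linked UMIs, 79.0% were Xist-only in the SD+RS library and 49.7% in the SD library, so the sexes were mixed in different proportions. The 7 classes compared had at least 100 cells in each library, and each expressed its own marker genes: neurons (4285 SD+RS and 3734 SD cells), astrocytes (1273 and 2092), oligodendrocytes (857 and 1388), oligodendrocyte precursors (184 and 288), microglia (170 and 228), endothelial cells (292 and 462) and mural cells (122 and 209). Member genes and all mitochondrial genes were left out of the clustering that defined the classes. Each group being 1 library, the sleep groups could not be tested against each other, and every interval below is a 95% interval that covers counting error only.

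The mitochondrially encoded and nuclear-encoded parts of the pathway were ordered differently across cell classes. Levels are UMIs of the members per 1000000 UMIs of the class (CPM). The summed mitochondrially encoded level was highest in mural cells, at 76373 CPM in the SD+RS library and 73977 CPM in the SD library. Oligodendrocytes followed, at 66549 and 73573 CPM, close to mural cells in the SD library. The mural level was that of a mixture. Its smooth muscle cells held 89765 CPM in SD+RS and 94522 CPM in SD, and its pericytes 40688 and 47390 CPM. Pericytes alone were thus below oligodendrocytes. The lowest sum was that of oligodendrocyte precursors, at 34119 and 40490 CPM, 2.02-fold below mural cells on the mean of both libraries. Between these lay astrocytes (47835 and 58559 CPM), microglia (40241 and 53690 CPM), neurons (41339 and 45429 CPM) and endothelial cells (36884 and 43030 CPM). From astrocytes down to oligodendrocyte precursors, each class overlapped its neighbour in the range of its SD+RS and SD values, so the order among these 5 classes is not firm.

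The nuclear-encoded subunits were highest in neurons, at 47056 CPM in the SD+RS library and 46929 CPM in the SD library, 1.55-fold above mural cells (31699 and 28951 CPM). Oligodendrocyte precursors (24610 and 24702 CPM) and astrocytes (22960 and 25676 CPM) overlapped. Oligodendrocytes (21036 and 20517 CPM), endothelial cells (19048 and 17536 CPM) and microglia (13913 and 14440 CPM) followed without overlap, and microglia were 3.32-fold below neurons. Of the 82 nuclear subunits, 65 had neurons as their highest class in both libraries. Of the 13 mitochondrially encoded genes, neurons were the highest class in both libraries for 0, mural cells for 4 and oligodendrocytes for 3. Neurons therefore held 0.879 mitochondrially encoded UMIs per nuclear-encoded subunit UMI in the SD+RS library and 0.968 in the SD library. The same ratio was 3.16 and 3.59 in oligodendrocytes, and 2.89 and 3.72 in microglia.

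**Figure D1:**
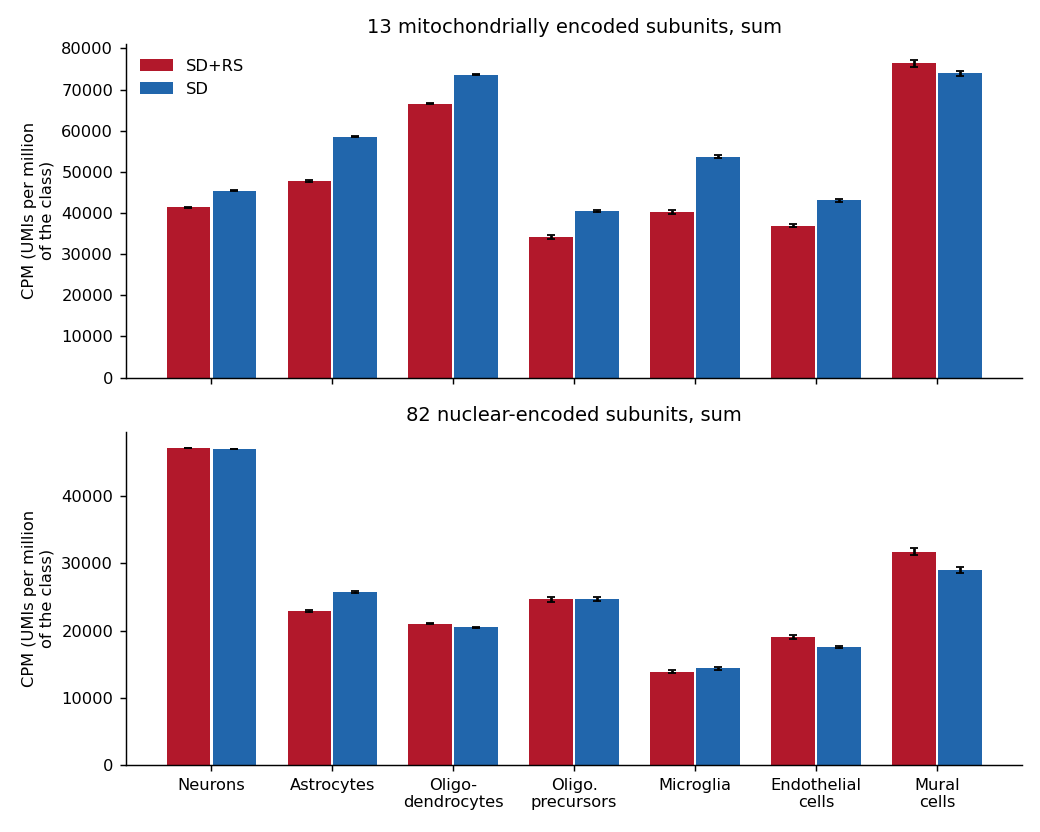
Summed level of mitochondrially encoded and nuclear-encoded subunits (CPM, axis from 0) in each of 7 cell classes, with the SD+RS library left of the SD library. The mitochondrially encoded sum is highest in mural cells and oligodendrocytes, and the nuclear sum is highest in neurons. Mural cells are a mixture of smooth muscle cells, with a high mitochondrially encoded sum, and pericytes, with a lower one.

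The mitochondrially encoded transcripts also differed in proportion between classes. mt-Nd1, a core membrane subunit of complex I, made up 5.08% of mitochondrially encoded UMIs of neurons in the SD+RS library and 4.77% in the SD library. Its share was 4.19% and 4.2% in microglia, 3.48% and 3.43% in oligodendrocytes, and 3.29% and 3.22% in endothelial cells. The lowest shares were 2.67% and 2.76% in astrocytes, 2.53% and 2.60% in mural cells, and 2.47% and 2.61% in oligodendrocyte precursors. mt-Nd5, at the proton-pumping end of complex I, made up 1.15% and 1.12% in neurons and 0.624% and 0.576% in oligodendrocytes. Its share was 0.916% in microglia of either library, and 0.847% and 0.941% in astrocytes. mt-Atp6, the proton channel subunit of complex V, had a share between 23.1% in microglia and 29.2% in oligodendrocyte precursors of the SD+RS library, and between 22.3% in neurons and 27.7% in mural cells of the SD library. For mt-Nd1 the libraries differed less than neurons did from the other classes named here. The share of mt-Nd3, a small complex I subunit, moved most in astrocytes, with 0.676% in the SD+RS library and 0.937% in the SD library.

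The genes with the most class-restricted levels were a pair of complex IV isoforms of mural cells, and 4 neuron-high subunits. Ndufa4l2, a paralogue of Ndufa4 known to be induced by hypoxia, reached 1024 CPM in mural cells of the SD+RS library and 1091 CPM in those of the SD library, against 50.7 and 52.4 CPM in the second class, endothelial cells. Cox4i2, an alternative form of the complex IV subunit COX4, reached 489 and 558 CPM in mural cells, against 19.5 and 30.9 CPM in endothelial cells. Neurons led for Cox5a (1257 and 1211 CPM, against 406 and 460 CPM in astrocytes), a complex IV subunit. They also led for Atp5g1 (967 and 951 CPM, against at most 349.5 CPM in any other class of the SD+RS library and 328 CPM in any of the SD library), for Ndufb5 of complex I (770 and 742 CPM) and for Cox5b of complex IV (1172 and 1168 CPM). All 9 mural markers were detected in endothelial cells, with summed levels of 945.5 CPM in the SD+RS library and 1158 CPM in the SD library. The part of mural RNA in the endothelial levels of Cox4i2 and Ndufa4l2 was not tested.

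Within mural cells, the isoforms separated pericytes from smooth muscle cells, which were told apart by markers. Of Cox4i1 and Cox4i2 UMIs together, Cox4i2 made up 64.0% in pericytes of the SD+RS library and 58.9% in those of the SD library. In smooth muscle cells it made up 21.96% and 23.4%, and in endothelial cells 3.08% and 5.33%. Neurons used Cox4i1 almost alone, with a Cox4i2 share of 0.0144% and 0.0285%. Ndufa4l2 made up 96.1% and 91.8% of Ndufa4 and Ndufa4l2 UMIs in pericytes, 41.4% and 42.2% in smooth muscle cells, and 8.40% and 9.61% in endothelial cells. The smooth muscle cells included a less distinct sub-cluster of 27 SD+RS and 41 SD cells. Its marker scores, scaled to the highest sub-cluster, were 0.61 for smooth muscle and 0.24 for pericytes. In the other smooth muscle sub-cluster they were 1 and 0.06. The part of pericyte RNA in the smooth muscle shares was not tested.

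In cells counted singly, Ndufa4l2 was detected in 46 of 48 pericytes of the SD+RS library (95.8%, Clopper-Pearson interval 85.8 to 99.5%) and in 105 of 110 pericytes of the SD library (95.5%, 89.7 to 98.5%). Astrocytes, which should lack it, had a UMI in 0 of 1273 cells of the SD+RS library, where the same interval allows up to 0.289%. In the SD library they had a UMI in 4 of 2092 cells (0.191%, up to 0.489%). The median depths were 2255 and 2556 UMIs in pericytes and 3139 and 3442 UMIs in astrocytes. Both limits concern cells with a UMI, not cells that express the gene. The pericyte share was above that of astrocytes at a lower median depth. In pericytes Ndufa4l2 was at 2400 CPM in the SD+RS library and 1879 CPM in the SD library, and Cox4i2 at 1143 and 923 CPM. The Cox4i2 log2 ratio of SD+RS over SD was 0.31, with an interval of −0.003 to 0.61 that included 0, and that of Ndufa4l2 was 0.35 (0.14 to 0.56).

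The c subunit genes of ATP synthase were used in different proportions. In neurons Atp5g1, Atp5g2 and Atp5g3 made up 41.1%, 23.3% and 35.7% of their joint UMIs in the SD+RS library and 41.1%, 23.3% and 35.6% in the SD library. In endothelial cells the shares were 27.9%, 46.9% and 25.2% in the SD+RS library and 25.5%, 49.4% and 25.1% in the SD library. In oligodendrocytes they were 37.1%, 45.1% and 17.9% in the SD+RS library and 36.7%, 45.04% and 18.3% in the SD library. Atp5g2 was thus the smallest part in neurons and the largest in both of the other classes, in each library.

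**Figure D2:**
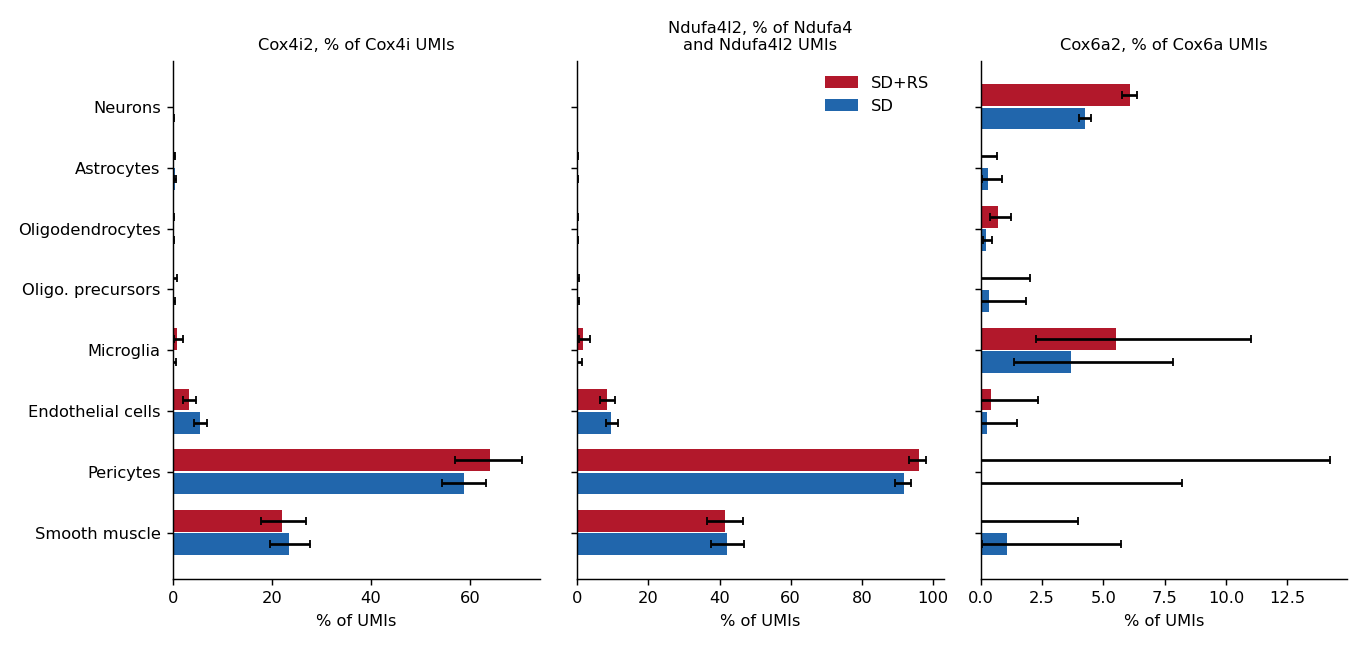
Share of each alternative isoform in the UMIs of its subunit (percent), by cell class, with the SD+RS bar above the SD bar and 95% Clopper-Pearson intervals. Cox4i2 and Ndufa4l2 make up the largest shares in pericytes, Cox6a2 reaches 6.07% (SD+RS) and 4.24% (SD) in neurons, and its microglial bars rest on 7 and 6 UMIs.

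Between the libraries, the mitochondrially encoded sum was lower in SD+RS than in SD in 6 of the 7 classes, and the nuclear sum showed no common direction. The log2 ratio of SD+RS over SD of the mitochondrially encoded sum was −0.14 in neurons (interval −0.14 to −0.13), −0.14 in oligodendrocytes, −0.22 in endothelial cells, −0.25 in oligodendrocyte precursors, −0.29 in astrocytes and −0.42 in microglia. It was 0.05 in mural cells (0.03 to 0.07). The median over classes was −0.22. For nuclear subunits the ratio was 0.00 in neurons, 0.04 in oligodendrocytes, 0.12 in endothelial cells, −0.01 in oligodendrocyte precursors, −0.16 in astrocytes, −0.05 in microglia and 0.13 in mural cells, with a median of 0.00. The median per-cell share of mitochondrial UMIs was 3.94% in SD+RS neurons and 4.29% in SD neurons, and 4.37% in SD+RS astrocytes and 5.37% in SD astrocytes. In microglia it was 3.36% in SD+RS and 3.89% in SD, a smaller difference than in the sums, and 3.53% of SD+RS microglia and 10.1% of SD microglia had 10% or more mitochondrial UMIs. In mural cells it was 7.22% and 5.61%. Cell number and RNA content per cell, and the handling of each library, cannot be told apart from the sleep history. The sex mixture also differed between the libraries, and its part was not tested. Ratios within Xist-only and within Y-only cells are given below, with the alternatives in processing.

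The mural value depended on its mixture. Smooth muscle cells made up 74 of 122 mural cells (60.7%) in the SD+RS library and 99 of 209 (47.4%) in the SD library, and held more mitochondrially encoded RNA than pericytes. Within pericytes the mitochondrially encoded sum was 40688 CPM in SD+RS and 47390 CPM in SD (log2 ratio −0.22, −0.27 to −0.17). Within smooth muscle cells it was 89765 and 94522 CPM (−0.07, −0.10 to −0.05). Both parts were lower in SD+RS, opposite to the mural class as a whole. The nuclear ratio kept its direction, at 0.13 in pericytes and 0.07 in smooth muscle cells. This split was added after the data had been seen.

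**Figure D3:**
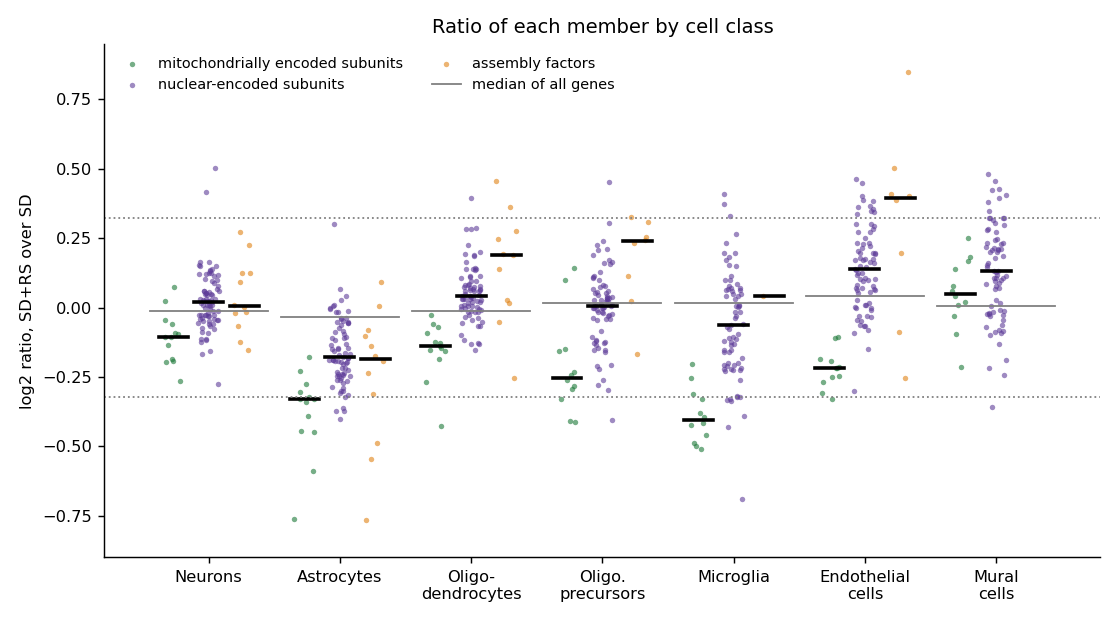
Log2 ratio of SD+RS over SD for each mitochondrially encoded, nuclear-encoded and assembly member with at least 100 UMIs in the class, in 7 classes. Dotted lines mark the threshold of 0.32, black bars the medians and grey lines the median of all genes. Mitochondrially encoded genes lie mostly below 0 outside mural cells, and nuclear subunits lie around 0 in neurons and mostly above 0 in endothelial cells.

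A gene was counted as higher or lower when its log2 ratio reached 0.32 in size and it had at least 100 UMIs in the class. Counts of members above or below 0 are given without the share of all genes on that side, so they only describe the members. Members named as highest or lowest in a class are so among nuclear-encoded members with at least 200 UMIs there. In neurons 4.64% of all 14006 genes entered were higher in SD+RS and 5.75% lower. Of the 13 mitochondrially encoded genes 11 had a ratio below 0, and 0 reached the threshold in either direction. mt-Co1, the catalytic subunit of complex IV, was at 4843 CPM in SD+RS and 5819 CPM in SD (−0.26, −0.27 to −0.26). mt-Co3, another core subunit of complex IV, was at 6161 and 7038 CPM (−0.19), and mt-Cytb, the only mitochondrially encoded part of complex III, at 5560 and 6324 CPM (−0.19). With mt-Nd3 (406 and 466 CPM, −0.20), these had the 4 lowest ratios. mt-Nd1 (2102 and 2167 CPM, −0.04) and mt-Atp6 (9692 and 10108 CPM, −0.06) differed less. The low-count genes mt-Atp8 and mt-Nd6 had ratios of 0.02 and 0.07 with intervals that included 0.

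Of 81 nuclear subunits entered in neurons, 2 were higher in SD+RS and 0 were lower, both below the shares of all genes. The median log2 ratio of the nuclear subunits was 0.02, beside −0.01 over all genes. The higher genes were Cox6a2 (0.50) and Cox7b2, an isoform counted 100 times in SD+RS and 68 times in SD (0.42, −0.04 to 0.88). Of the 12 assembly factors 0 passed in either direction. The next highest were Ndufaf1, an assembly factor of complex I, at 30.2 CPM in SD+RS and 25.03 CPM in SD (0.27), and Sdhaf1, which helps insert iron-sulphur clusters into complex II, at 49.8 and 42.6 CPM (0.23). The lowest were Cox6b2 at 3.66 and 4.43 CPM (−0.28), Atp5e, the epsilon subunit of ATP synthase, at 678 and 762 CPM (−0.17), and Ndufa3, an accessory subunit of complex I, at 260 and 290 CPM (−0.16).

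Within complex I of neurons, the 7 nuclear core subunits, which carry the flavin and iron-sulphur clusters, had a median log2 ratio of 0.12, and the 29 accessory subunits a median of 0.01. The same medians were 0.11 and 0.05 in oligodendrocytes, −0.04 and −0.22 in astrocytes, and 0.08 and −0.07 in microglia. The core median was the higher in all 7 classes, and no difference between the medians was tested.

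In astrocytes all 13 mitochondrially encoded genes had a ratio below 0, and 8 of 13 were lower in SD+RS past the threshold. Over all 9497 genes entered in astrocytes 15.0% were that much lower and 10.8% that much higher. mt-Nd3 was at 324 CPM in SD+RS and 549 CPM in SD (−0.76, −0.85 to −0.67), the largest difference of any mitochondrially encoded gene with at least 100 UMIs in any class. mt-Co1 was at 5413 and 7377 CPM (−0.45), and mt-Nd5 at 405 and 551 CPM (−0.44). Of 77 nuclear subunits 71 were below 0, 5 of them past the threshold, and of 12 assembly factors 3. The median log2 ratio of the nuclear subunits was −0.18, beside −0.03 over all genes. Ndufaf6 (14.3 CPM in SD+RS and 20.8 CPM in SD, −0.55) and Ndufaf1 (18.4 and 25.8 CPM, −0.49), both assembly factors of complex I, and Atp5e (308 and 408 CPM, −0.40) were the lowest named. Ndufs1, the largest core subunit of complex I, went the other way, at 120 and 97.7 CPM (0.30, 0.13 to 0.47). Sdha (0.07) and Uqcrc2 (0.04) followed with intervals that included 0. Astrocytes also held fewer neuron transcripts in SD+RS: 12 of 12 neuron markers were lower, with sums of 263.5 CPM in SD+RS and 537.8 CPM in SD, and their part in the astrocyte values was not tested.

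Microglia had the lowest ratio of the summed mitochondrially encoded UMIs, though not of the per-cell median share given above. Of 12 genes entered, 9 were lower in SD+RS past the threshold and 0 higher, and over all 2814 genes entered 13.6% were lower and 13.3% higher. mt-Co3 was at 5947 CPM in SD+RS and 8409 CPM in SD (−0.50), mt-Co1 at 4669 and 6543 CPM (−0.49), and mt-Co2 at 6697 and 9196 CPM (−0.46), all core subunits of complex IV, and mt-Nd3 was the lowest, at 422 and 601 CPM (−0.51). Of 73 nuclear subunits 7 were lower and 3 higher, and the lowest were Ndufc1 (−0.69), Ndufa5 (−0.43) and Ndufb5 (−0.39), accessory subunits of complex I. Ndufc1 had 67 UMIs in SD+RS and 142 UMIs in SD. Among members with at least 200 UMIs, Cox7b, Ndufs8 and Ndufc2 were the highest, at 0.33, 0.26 and 0.23, each with an interval that included 0; the other 2 past the threshold, Ndufv3 (0.41) and Ndufv1 (0.37), had fewer UMIs. All 12 neuron markers were lower in SD+RS microglia too, with sums of 165.9 CPM in SD+RS and 398.4 CPM in SD; their part was not tested. In microglia with Y-linked UMIs only, 21 SD+RS and 62 SD cells, the mitochondrially encoded ratio was −0.04, and in Xist-only cells it was −0.62.

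In oligodendrocytes the mitochondrially encoded sum was lower in SD+RS and the nuclear sum slightly higher. All 13 mitochondrially encoded genes were below 0, 1 of them, mt-Nd6, lower past the threshold (−0.43, with 131 UMIs in SD+RS and 260 in SD). Of 77 nuclear subunits 55 were above 0, 1 was higher past the threshold and 0 lower, and of 11 assembly factors 2 were higher. The median log2 ratio of the nuclear subunits was 0.04, beside −0.01 over all genes. Over all 9146 genes entered, 11.7% were higher and 12.9% lower. The 3 higher members all serve complex II: Sdhaf1 at 55.4 CPM in SD+RS and 40.3 CPM in SD (0.46, 0.28 to 0.64), Sdhb, the iron-sulphur subunit, at 167 and 127 CPM (0.39, 0.29 to 0.50), and Sdhaf4 at 37.2 and 29.0 CPM (0.36, 0.14 to 0.58). Sdhaf2, which attaches the flavin to SDHA, was instead the lowest named, at 27.9 and 33.2 CPM (−0.25, −0.49 to −0.02), followed by Ndufa6 (−0.15) and Atp5j2 (−0.13). Neuron marker sums were 254 CPM in SD+RS and 338 CPM in SD, with 11 of 12 lower, and their part was not tested.

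In oligodendrocyte precursors 3 of 12 mitochondrially encoded genes were lower past the threshold, with mt-Nd3 (−0.41) and mt-Co1 (−0.41) the lowest. Of 75 nuclear subunits 1 was higher and 1 lower, and of 8 assembly factors 1 was higher, where 12.8% of all 4834 genes entered were higher and 11.9% lower. The lowest was Ndufa2, an accessory subunit of complex I, at 201 CPM in SD+RS and 266 CPM in SD (−0.40), followed by Ndufab1 (−0.30) and Ndufb2 (−0.28). Among members with at least 200 UMIs the highest were Ndufa8 (0.31), Sdhaf4 (0.26) and Ndufv2 (0.24), of which Sdhaf4 had an interval that included 0. Oligodendrocyte markers in the precursors summed to 3272 CPM in SD+RS and 5343 CPM in SD, with 9 of 11 lower, and neuron markers to 1180 and 1256 CPM; their part was not tested.

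Endothelial cells had higher nuclear and lower mitochondrially encoded transcripts in SD+RS. Of 12 mitochondrially encoded genes 1 was lower past the threshold, mt-Co3, at 4633 CPM in SD+RS and 5822 CPM in SD (−0.33). Of 76 nuclear subunits 62 were above 0, 11 higher past the threshold and 0 lower, and of 8 assembly factors 5 were higher. The median log2 ratio of the nuclear subunits was 0.14, beside 0.04 over all genes. Over all 5155 genes entered 15.8% were higher and 12.3% lower, so the share of the nuclear subunits that were higher was close to the background. Ndufb4 of complex I was at 183 CPM in SD+RS and 133 CPM in SD (0.46, 0.21 to 0.72), Sdhb at 132 and 96.4 CPM (0.45, 0.15 to 0.75) and the assembly factor Ndufaf3 at 73.3 and 55.2 CPM (0.41, 0.00 to 0.81). Ndufa7, an accessory subunit of complex I, was the lowest, at 412 and 508 CPM (−0.30, −0.45 to −0.15), followed by Ndufa3 (−0.15) and Atp5e (−0.08), both with intervals that included 0. Sdhb was thus higher in both oligodendrocytes and endothelial cells. Markers of mural cells (8 of 9), oligodendrocytes (8 of 11) and neurons (11 of 12) were lower in SD+RS endothelial cells, and their part was not tested.

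In mural cells 0 of 12 mitochondrially encoded genes passed, and of 75 nuclear subunits 11 were higher and 1 lower, where 14.6% of all 1887 genes entered were higher and 17.8% lower. Cox6a1 was at 276 CPM in SD+RS and 198 CPM in SD (0.48, 0.11 to 0.85), Ndufa11 of complex I at 314 and 229 CPM (0.46) and Ndufa13 of complex I at 900 and 669 CPM (0.43). Ndufc2 (−0.24) and Ndufa2 (−0.22), accessory subunits of complex I, had intervals that included 0. Smooth muscle cells were a larger share of mural cells in SD+RS, and the part of this in these values was not tested. Within the parts, the nuclear sum had ratios of 0.13 in pericytes and 0.07 in smooth muscle cells. Cox6a1 had ratios of 0.57 in pericytes and 0.32 in smooth muscle cells, both with intervals that included 0. Endothelial markers in mural cells summed to 247 CPM in SD+RS and 559 CPM in SD and neuron markers to 215.9 and 586.8 CPM, and their part was not tested.

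Across 34 neuron clusters with at least 50 cells in each library, the mitochondrially encoded sum ranged from 27478 to 58242 CPM (median 41990) in the SD+RS library and from 28523 to 63604 CPM (median 46410) in the SD library. The nuclear sum ranged from 39429 to 60342 CPM in SD+RS and from 38193 to 59560 CPM in SD. Cluster levels were alike in the 2 libraries, with a Pearson correlation over the 34 clusters of 0.951 for the mitochondrially encoded sum (Spearman 0.901) and 0.979 for the nuclear sum (Spearman 0.952). The cells of a cluster share their library, so these are descriptions. Between the sums of the 2 genomes the correlation over clusters was weak, at 0.207 in SD+RS (Spearman 0.193) and 0.386 in SD (Spearman 0.303). The SD+RS over SD log2 ratio of the mitochondrially encoded sum lay between −0.27 and 0.04, with the interval below 0 in 32 clusters and above 0 in 2. That of the nuclear sum lay between −0.07 and 0.08, with 16 intervals above 0 and 9 below.

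The highest mitochondrially encoded sums were those of the clusters led by Tac2, Sntb1 and Gpr139 (56493 CPM in SD+RS and 63604 CPM in SD), by Cck, Fam159b and Sytl4 (58242 and 61685 CPM) and by Pou3f1, Gm45768 and Shh (51699 and 60851 CPM). The cluster led by Penk, Nmu and Serpinb1b was the lowest, at 27478 and 28523 CPM, and those led by Gng8, Barhl2 and C1ql1 and by Calca, Adgrf5 and Lhx8 were next. The Pou3f1 cluster was also the highest for nuclear subunits, at 60342 CPM in SD+RS and 59560 CPM in SD, ahead of clusters led by Gbx1, Bcl11b and Satb1 (57919 and 56295 CPM) and by Ddc, Th and Sp8 (57937 and 56020 CPM). The Penk cluster was the lowest there as well, at 39429 and 38193 CPM. The Cck cluster, among the highest for the mitochondrial genome, was in the lower part of the range for nuclear subunits, at 41031 CPM in SD+RS and 42694 CPM in SD. Its mitochondrial UMIs are part of the denominator, without which the nuclear sums were 43568 and 45500 CPM.

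**Figure D4:**
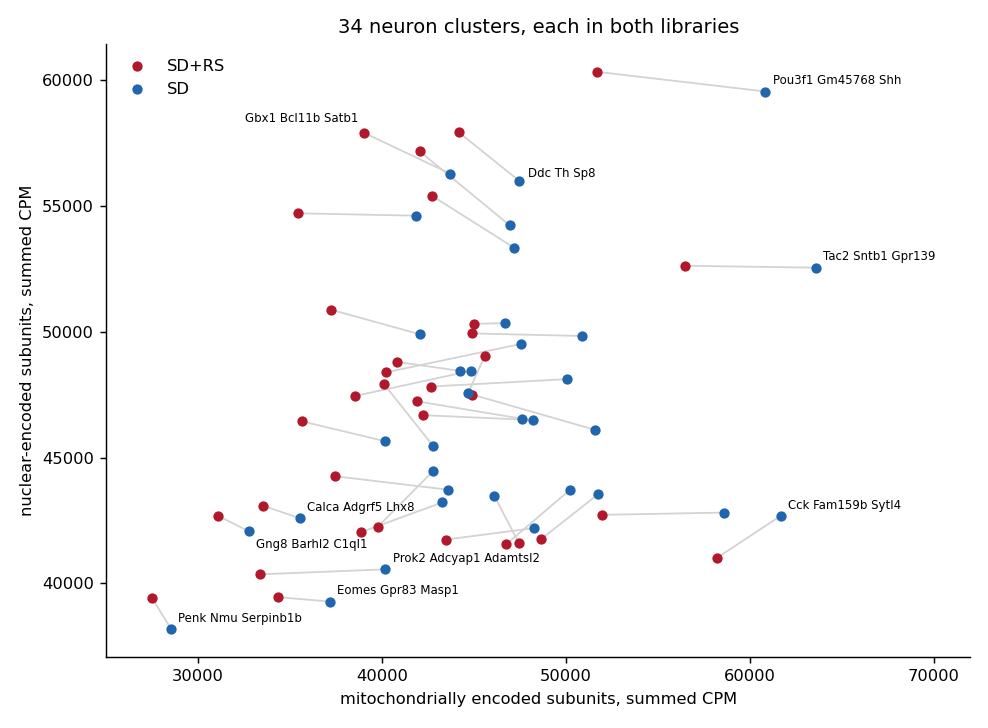
Nuclear-encoded sum (CPM) against mitochondrially encoded sum (CPM) in 34 neuron clusters, with SD+RS and SD points of a cluster joined by a line and the extreme clusters named by their leading genes. Most lines run to the left from SD to SD+RS, and the Tac2, Cck and Penk clusters stay at the ends of the mitochondrial axis.

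Among members with a mean of at least 20 CPM over neuron clusters, those that varied most were Atp5b (coefficient of variation 0.266), the catalytic beta subunit of ATP synthase, Uqcrc1 (0.265), a core subunit of complex III, Ndufv1 (0.262), the NADH-binding subunit of complex I, and Cox5a (0.243). All 4 were highest in the Pou3f1 cluster and second in the Gbx1 cluster. Atp5b was at 1655 CPM in SD+RS and 1265 CPM in SD in the Pou3f1 cluster, against medians over clusters of 755 and 668 CPM. Cox5a was at 2072 and 1946 CPM there, against medians of 1242 and 1155 CPM. Atp5b, Uqcrc1 and Ndufv1 were lowest in the cluster led by Brs3, Prok2 and Calcr, whose mitochondrially encoded sum was in the upper part of the range (51936 CPM in SD+RS and 58586 CPM in SD).

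The Tac2 cluster, with 82 SD+RS and 95 SD cells, was set against all other neurons within each library. Of 12 mitochondrially encoded genes with enough UMIs, 12 were higher in the cluster in both libraries and 11 by at least 0.32 on the log2 scale in both, with median log2 ratios of 0.51 in SD+RS and 0.52 in SD. mt-Nd5 stood highest, at 848 CPM in the cluster and 465 CPM in other neurons of SD+RS (0.87), and at 995 and 494 CPM in SD (1.01). Over all 6787 genes entered, which include those the clusters were made from, 13.8% were that much higher in both libraries and 11.7% lower. Of 77 nuclear subunits 62 were higher in both libraries but 9 by at least 0.32 in both, a share below that of all genes, with medians of 0.12 and 0.16. Cox4i1, the common COX4 isoform, was at 2177 CPM in the cluster and 1466 CPM in other neurons of SD+RS (0.57), and at 2225 and 1466 CPM in SD (0.60). Ndufa13 was at 1125 and 776 CPM in SD+RS (0.54) and at 1121 and 774 CPM in SD (0.53). Of 12 assembly factors 3 were lower by at least 0.32 in both libraries, among them Ndufaf2, at 66.4 and 103 CPM in SD+RS (−0.64) and at 69.4 and 108 CPM in SD (−0.64). The cluster was picked for its sum, so these values describe it.

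**Figure D5:**
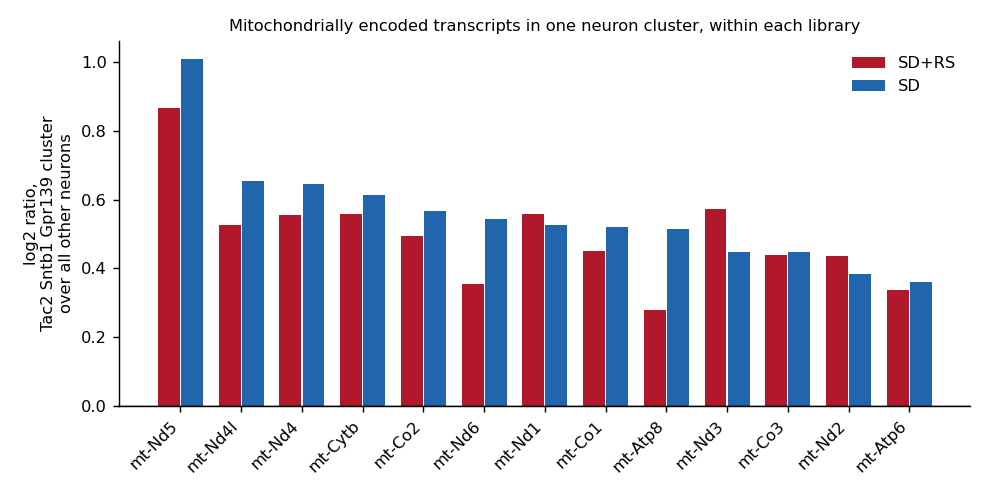
Level of each of the 13 mitochondrially encoded genes in the Tac2, Sntb1 and Gpr139 cluster over that in all other neurons (log2 ratio), with SD+RS bars left of SD bars. All bars lie above 0, and mt-Nd5 is the highest, at 0.87 (SD+RS) and 1.01 (SD).

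In the authors' deposited table of cluster markers for both libraries together, cluster i2 lists Gpr139 among its genes, with 9 mitochondrially encoded and 4 nuclear members as higher. In the authors' deposited table the nuclear members are Cox4i1, Ndufa13, Uqcrh and Ndufa2. Other clusters there also list mitochondrially encoded members, with 6 higher in i15, 3 higher in i10 and 11 lower in i13. Gpr139 was also a leading gene of the cluster led by Sostdc1, Prkcd and Amigo2. The cells of i2 were not matched to those of the Tac2 cluster.

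Cox6a2, a form of the complex IV subunit COX6A known from heart and skeletal muscle and described in parvalbumin interneurons, had the highest ratio in neurons. It was at 15.9 CPM in SD+RS (interval 15.1 to 16.7) and 11.2 CPM in SD (10.6 to 11.96), a log2 ratio of 0.50 (0.39 to 0.62), from 1566 and 1005 UMIs. It was detected in 517 of 4285 SD+RS neurons (12.1%) and 369 of 3734 SD neurons (9.88%), at median depths of 21304 and 22246 UMIs. In astrocytes, at medians of 3139 and 3442 UMIs, it was detected in 0 of 1273 and 3 of 2092 cells (0.143%), and in microglia in 5 of 170 (2.94%) and 5 of 228 (2.19%), at medians of 5397 and 5176 UMIs. The neuron shares lay above both, at a greater depth. Cox6a2 made up 6.07% of Cox6a1 and Cox6a2 UMIs in SD+RS neurons and 4.24% in SD neurons.

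The gene was concentrated in a few clusters. In the cluster led by Lhx8, Cdh23 and Spon1 it was at 91.6 CPM in SD+RS and 55.4 CPM in SD (0.73, 0.48 to 0.97), and it was detected in 104 of 176 SD+RS cells (59.1%) and 82 of 191 SD cells (42.9%). In the cluster led by Nfix, Cplx3 and St18 it was at 66.2 and 32.4 CPM (1.03). These clusters held 41.8% of the Cox6a2 UMIs of the 34 clusters in SD+RS and 35.3% in SD. Of the 34 clusters 22 had a higher level in SD+RS, 7 with the interval above 0, and 1 cluster had its interval below 0. Cox6a1 in the Lhx8 cluster was at 251 and 242 CPM (0.05). The Lhx8 cluster held 130 Xist-only and 38 Y-only cells in SD+RS, and 83 and 100 in SD. The Nfix cluster held 89 and 32 in SD+RS, and 9 and 68 in SD, and its share of cells with Cox6a2 was 25.95% in SD+RS and 24.4% in SD. Over all neurons the Cox6a2 log2 ratio was 0.458 (0.287 to 0.631) in Xist-only cells and 0.415 (0.198 to 0.629) in Y-only cells. The part of the sex mixture in the cluster ratios was not tested.

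Genes of the same pathway outside the rule were taken from lists of known function. Of 34 electron carriers, assembly factors and inhibitors, such as Cycs, which encodes cytochrome c, and Atpif1, the inhibitor of ATP synthase, 0 of 34 passed the threshold in neurons in either direction and 8 of 33 were lower in astrocytes, where 15.0% of all genes were lower. Cycs was at 157 CPM in SD+RS astrocytes and 206 CPM in SD astrocytes (−0.39). Atpif1 was at 149 and 193 CPM in astrocytes (−0.38), at 306 and 238 CPM in microglia (0.36) and at 178 and 123 CPM in endothelial cells (0.54).

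Of 14 genes of mitochondrial DNA expression, 0 of 14 passed in neurons, and in astrocytes 6 of 13 were lower and 1 higher. Tfam, which packages and transcribes mitochondrial DNA, was at 42.9 CPM in SD+RS neurons and 42.6 CPM in SD neurons (0.01), and Polrmt, the mitochondrial RNA polymerase, at 8.62 and 8.70 CPM (−0.01). Of 78 genes of the mitochondrial ribosome, which translates the 13 mitochondrially encoded members, 0 of 77 passed in neurons. In endothelial cells 24 of 61 were higher and 1 lower, with a median of 0.22 beside 0.04 over all genes, and 15.8% of all genes higher. In astrocytes 14 of 77 were lower and 0 higher, near the 15.0% of all genes that were lower.

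Among 9 regulators of mitochondrial biogenesis, 8 entered in neurons and 1 was lower: Gabpa, an ETS factor of respiratory genes, at 6.84 CPM in SD+RS and 9.57 CPM in SD (−0.49, −0.63 to −0.34). The coactivator Ppargc1a was at 36.8 and 38.8 CPM (−0.08), and Nrf1 at 13.2 and 13.5 CPM (−0.04). Of 14 genes of the tricarboxylic acid cycle, which supplies the electrons, 1 of 14 was higher in neurons and 0 lower, with a median of 0.14 beside −0.01 over all genes. The higher gene was Suclg2 (0.37), with 209 UMIs in SD+RS and 147 UMIs in SD. Mdh2, malate dehydrogenase, was at 551 and 496 CPM (0.15). Of 10 membrane and carrier genes, Ucp2, a mitochondrial uncoupling protein family member, was higher in neurons, at 15.0 and 10.9 CPM (0.47, 0.35 to 0.58), and lower in endothelial cells, at 441 and 562 CPM (−0.35, −0.50 to −0.20).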

How the data were processed

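The authors deposited a matrix of UMI counts for each library (genes by called cell barcodes), which the file headers credit to Cell Ranger 3.0.2. The submitters' processing notes name build mm10 and Seurat 4.0.4. The authors' deposited marker tables hold a difference per gene, a score on a log scale of unstated base, per the file headers; only its direction was used. Of 31054 gene identifiers, 31011 were found in GENCODE vM21.

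Cells needed at least 500 genes and under 20% mitochondrial UMIs. Doublets were called per library (274 of 7709 SD+RS cells, 3.55%, and 582 of 9875 SD cells, 5.89%) and removed. With scanpy 1.11.5, both libraries were clustered together without members, mitochondrial, ribosomal protein, hemoglobin, heat-shock, immediate early or sex-marking genes, and clusters were named from marker lists; the scoring and its thresholds were set after seeing the data. Unnamed clusters held 3.07% of SD+RS cells and 9.24% of SD cells. UMIs were summed per class and library. Poisson, Clopper-Pearson and conditional binomial intervals (95%) cover counting error only. Genes entered the counts of differences with at least 100 UMIs in the class and were called at a log2 ratio of 0.32 in size. The members and gene lists were chosen with earlier results of these data known. Named genes were the 13 mitochondrially encoded members, in each class the 3 highest and 3 lowest nuclear ratios among members with at least 200 UMIs, listed isoforms, the 6 most class-restricted members and the 4 most variable over neuron clusters; other members past that threshold that are named, and genes named from the pathway lists, were chosen after their values were seen. Some items these rules name are not reported here. The interval and fold calculations were tested on simulated data.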

Additional observations from a re-analysis of the deposited data

Results flagged for a closer look

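Ndufa8, an accessory subunit of complex I, had opposite ratios of SD+RS over SD in 2 classes, each past the threshold of 0.32. Its log2 ratio was 0.383 in endothelial cells and −0.373 in astrocytes. Uqcr11, a small subunit of complex III, had a log2 ratio of 0.349 in mural cells and −0.333 in microglia. With 1 library per group, neither difference between classes was tested.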

How the results depend on the processing

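In neurons the mitochondrially encoded log2 ratio was −0.136, and it was −0.142 with the denominator free of mitochondrially encoded UMIs, −0.140 without a mitochondrial limit, −0.132 with a 10% limit, −0.118 as a mean over cells and −0.133 in Xist-only cells (Xist but no Y-linked UMIs; Y-only cells are the converse). Its median over classes was −0.188 as a mean over cells, −0.268 in Xist-only cells, −0.105 in Y-only cells and −0.189 in cells of at least 5000 UMIs. The nuclear ratio of neurons and its median over classes, both 0.00388, turned to −0.00229 with the other denominator, −0.00557 as a mean over cells, −0.00959 in Xist-only cells and −0.00285 in Y-only cells; the neuron value was 0.0104 with doublets kept, and the median was 0.0363 in cells of at least 5000 UMIs. The mural mitochondrially encoded ratio turned to −0.101 in Y-only cells (11 SD+RS and 51 SD cells) and −0.0591 at 5000 UMIs (12 and 26 cells). It was −0.220 in pericytes alone and −0.0745 in smooth muscle cells alone. Leaving those parts aside, the mural ratio ranged from −0.101 to 0.242 over the alternatives. Summed over classes, with a gene counted once in each class, mitochondrially encoded genes past the threshold numbered 0 higher and 22 lower. Nuclear subunits numbered 29 higher and 14 lower. Over all genes, 4.64% (neurons) to 15.8% (endothelial cells) were higher, and 5.75% (neurons) to 17.8% (mural cells) lower. Endothelial cells (11 of 76) and mural cells (11 of 75) held most of the higher nuclear subunits. These were close to the shares of all genes there, 15.8% and 14.6%. At 1.5-fold mitochondrially encoded genes numbered 2 lower and nuclear subunits 0 higher and 1 lower. With no UMI minimum 1 mitochondrially encoded gene was higher. The pericyte and smooth muscle values were added after seeing the data. The astrocyte mitochondrially encoded ratio ranged from −0.365 to −0.105, and the microglial one from −0.616 to −0.0411, over all alternatives. The cause of these changes was not tested, except that a larger fold calls fewer genes by construction. No paired analysis was possible because each group is 1 library. The spread between libraries of a group is unmeasured, and small classes, such as the 122 SD+RS mural cells, have wider counting intervals.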

Other observations

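A cluster whose best marker score was that of neurons, left unnamed for its low depth and led by Miat, B830012L14Rik and Celsr3, stood apart in its balance of the 2 genomes. It held 96 SD+RS cells (1.29%) and 686 SD cells (7.38%), at median depths of 2430 and 3314 UMIs. Mitochondrially encoded genes took 12.4% of its UMIs in SD+RS and 9.99% in SD, against 4.13% and 4.54% in named neurons. Its nuclear subunits summed to 20610 CPM in SD+RS and 15870 CPM in SD, against 47056 and 46929 CPM in named neurons. The cluster was left out of all class values above.

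Among astrocytes, the cluster led by Itih3, Notch2 and Agt was shallow, at medians of 1307 UMIs in SD+RS and 1296 UMIs in SD, with mitochondrially encoded shares of 9.29% and 9.27%. The main astrocyte cluster, led by Cldn10, Gjb6 and F3, had 4.52% in SD+RS and 5.54% in SD. The deeper cluster led by Gfap, Gdf10 and C4b, at medians of 6677 and 6727 UMIs, had 8.84% and 9.22%. The cluster led by Mlc1, Lxn and S100b had 11.2% in 4 SD+RS cells and 11.47% in 45 SD cells. Its medians were 1397 and 1032 UMIs.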
